A study of Mus musculus with 18 samples.

Results

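The comparison addressed here is the effect of a high-fat diet with streptozotocin (STZ) on the liver transcriptome of mice that were all dosed with alginate oligosaccharide (AOS). The HSA10 group (high-fat diet, STZ and AOS at 10 mg/kg) was set against the A10 group (AOS at 10 mg/kg alone). The members are the 6 libraries that the labels put in these groups, 3 in each, out of 18 libraries in the series, and the test covered the 10204 genes whose mean reached 1 RPKM across all 18. RPKM divides a gene's reads by the gene's length and by the library's total. STZ destroys pancreatic beta cells, the source of insulin, and AOS is made of short chains cut from the seaweed polysaccharide alginate. All livers came from ICR mice at 10 weeks of age. The study describes male mice, a diet that was given up to sampling and a single STZ dose. Its methods do not describe the livers of A10 or HSA10, and the route and schedule of AOS in these mice are therefore not given in the sources used here. HS (high-fat diet and STZ) and Con (regular diet and saline), also with 3 libraries each, gave the same contrast in mice without AOS.

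In the liver, insulin and a carbohydrate-rich meal raise the synthesis of fatty acids, and a fall of membrane sterol raises the synthesis of cholesterol through the SREBP factors. PPAR alpha is a nuclear receptor that is activated by fatty acids. It switches on their transport and their oxidation in mitochondria and peroxisomes, and with it ketone body synthesis. The circadian clock is a loop in which the activators encoded by Arntl, Clock and Npas2 drive their own repressors (the Per, Cry and Nr1d genes) and output genes such as Dbp, so that transcript levels depend on the hour.

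The RPKM values of the 6 libraries summed to between 711510 and 746327. The number of reads is not given in the sources used here, so values carry no counting error here. The SD of a level rests on the 3 libraries of its group. Defining hepatocyte transcripts were high in all 6 libraries. Alb, the gene of albumin, lay between 28788 and 35599 RPKM. One A10 library stood apart. Among the 659 genes whose 3 A10 values spread over more than 0.5 on the log2 scale, replicate 3 lay between the other A10 libraries for 82.3%, where 33.3% would be the share for 3 independent libraries. The HSA10 libraries lay in between for 29.97% to 38.76% of 1001 genes. Con replicate 3 behaved like A10 replicate 3, at 87.9% of 932 genes. The main counts are therefore also given without A10 replicate 3. Nothing in the labels says how the libraries of a group relate to each other, so the p-values measure the spread between libraries, which may be partly technical.

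Each gene was fitted in limma on the log2(RPKM + 1) scale, with a Benjamini-Hochberg adjusted p under 0.05 as the threshold for a call. Log2 changes below are HSA10 minus A10 on this scale, which understates the change of genes at low RPKM, and ± marks the SE of a log2 change or the SD of a level (n = 3). All 18 libraries entered 1 fit, so each SE and p-value drew on the spread within every group of the series, those outside this comparison included. Of the 10204 genes, 2131 (20.9%) were called, 1388 (13.6%) higher and 743 (7.28%) lower in HSA10. The counts of calls in the gene lists below should be read against these shares. The 3 HSA10 libraries lay all above the 3 A10 libraries for 26.9% of the genes and all below for 16.1%, against which the counts of members without overlap below should be read. An exact permutation test of 3 libraries against 3 cannot go under p = 0.1, so single genes rest on the limma value. A log2 change of at least 1 was seen in 308 called genes, 178 of them higher. Without A10 replicate 3, 1372 genes were called (874 higher and 498 lower), and 1359 of these were among the 2131. In a fit of only the 6 compared libraries, 2465 genes were called (1601 higher and 864 lower), and 1921 of these were among the 2131. With each library scaled to the same median the split was 1243 higher and 1151 lower, with quantile normalization 1294 and 1100, and the median log2 change over all genes moved from 0.04 to -0.01 and 0.00.

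**Figure D1:**
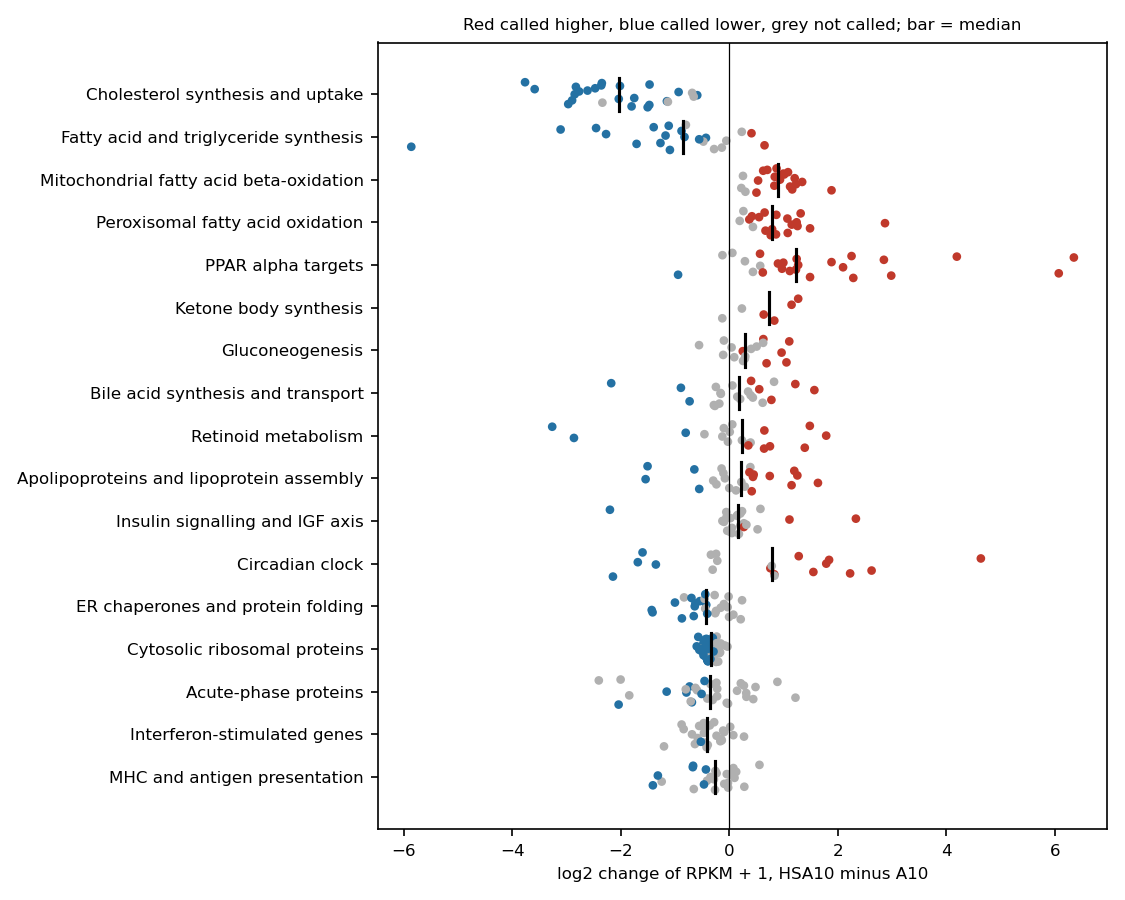
Log2 change of RPKM + 1, HSA10 minus A10, of the tested members of 17 gene lists. Each point is a gene, coloured by its call, and the bar is the median of the list. The cholesterol list lies wholly below 0 (median -2.04) and the mitochondrial beta-oxidation list wholly above (median 0.90).

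Genes of cholesterol synthesis were lower in HSA10 as a block. Of 25 tested members, 21 were called lower and 0 higher, the median log2 change was -2.04, and for all 25 the 3 HSA10 libraries lay below the 3 A10 libraries. Without A10 replicate 3, 17 of 25 were called lower. Sqle (chr15:59315077-59331192 in GRCm38), the gene of squalene epoxidase, was at 36.8, 34.8 and 35.2 RPKM in the A10 libraries and at 0.60, 0.42 and 7.54 RPKM in the HSA10 libraries. The third HSA10 library was more than 10 times the other two and still below every A10 library, and the log2 change was -3.77 ± 0.93 (adjusted p = 0.00979 from limma). Fdps (chr3:89093588-89101959), which makes farnesyl diphosphate, was at 297, 241 and 233 RPKM in A10 and at 9.99, 15.5 and 52.6 RPKM in HSA10, a log2 change of -3.59 ± 0.83 (adjusted p = 0.00719). Mvd, an enzyme of the mevalonate pathway, fell by 2.90 on the log2 scale.

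An early enzyme and the regulators of the pathway, picked here after their values were seen, moved the same way. Hmgcs1, the cytosolic HMG-CoA synthase, was at 170, 141 and 161 RPKM in A10 and at 16.0, 30.5 and 54.4 RPKM in HSA10 (log2 change -2.35 ± 0.64, adjusted p = 0.0174 from limma). Insig1, the sterol sensor that holds SREBP in the endoplasmic reticulum, fell by 2.83 and Srebf2, the gene of SREBP-2 itself, fell by 0.94 on the log2 scale. Members that were not called included Idi1 (log2 change -2.34, adjusted p = 0.0959), Stard4 and Hsd17b7. The third HSA10 library was the highest of its group for 23 of the 25 genes, and A10 replicate 1 was the highest of its group for 22.

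The promoter windows of this list are shown because its members moved together. RefSeq windows of 300 bases (250 before and 50 after the start, GRCm38.p6) were at hand for 17 of the 25 genes. The sequence CCAAT, the core of the site bound by the factor NF-Y, was found on either strand in 16 of the 17 genes (94.1%), against 43.1% of the 8130 tested genes with a window and 41.1% of all 27025 genes with one. The share was also above that of the tested genes in other sets, at 76.5% of the clock genes, 68.4% of the fatty acid and triglyceride synthesis genes and 53.8% of all genes called lower. A match to the sterol regulatory element TCACNCCAC was found in 1 of the 17, Hmgcs1, against 1.55% of the tested genes with a window. Capitals mark these letters on either strand (ATTGG is CCAAT on the opposite strand, and the 9-letter match is the sterol regulatory element). A match is a description of the letters, not evidence of binding. The sequence before the start of Hmgcs1 (chr13:119690101-119690350, plus strand) is followed by stretches of Insig1 (chr5:28071171-28071230, plus strand), Idi1 (chr13:8885536-8885595, plus strand, where the last capitals are a further copy cut by the end of the stretch) and Msmo1 (chr8:64733704-64733763, minus strand), each 5′ to 3′ along the gene.
Hmgcs1: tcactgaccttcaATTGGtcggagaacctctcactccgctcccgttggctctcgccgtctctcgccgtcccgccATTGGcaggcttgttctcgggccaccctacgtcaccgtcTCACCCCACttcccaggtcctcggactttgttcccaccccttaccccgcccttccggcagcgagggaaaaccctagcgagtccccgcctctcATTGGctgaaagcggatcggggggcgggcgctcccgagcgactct
Insig1: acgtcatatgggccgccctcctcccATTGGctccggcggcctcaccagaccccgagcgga
Idi1: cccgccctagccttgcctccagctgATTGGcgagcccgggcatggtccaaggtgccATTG
Msmo1: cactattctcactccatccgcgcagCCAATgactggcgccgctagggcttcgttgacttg

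Genes of fatty acid and triglyceride synthesis also fell, with 14 of 22 called lower and 2 called higher (median log2 change -0.85), or 10 and 0 without A10 replicate 3. Scd1 (chr19:44394455-44407879), the desaturase that makes monounsaturated fatty acids, had the largest fall of all called genes. It was at 2033, 895 and 1328 RPKM in the A10 libraries and at 15.9, 14.5 and 46.1 RPKM in the HSA10 libraries, a log2 change of -5.86 ± 0.67 (adjusted p = 6.34e-05 from limma). The lowest A10 library thus stood far above the highest HSA10 library. Fasn, fatty acid synthase, was at 46.9 to 112 RPKM in A10 and at 4.81 to 10.8 RPKM in HSA10 (log2 change -3.11, adjusted p = 0.00209). Acss2, which makes acetyl-CoA from acetate, fell by 2.46 on the log2 scale. The members called higher were Fads2, the delta-6 desaturase of polyunsaturated fatty acids (log2 change 0.65), and Lpin2 (0.41), and neither kept its call without A10 replicate 3. Srebf1, the gene of SREBP-1, did not pass the test and its libraries overlapped (40.1 to 73.5 RPKM in A10 and 42.1 to 60.4 RPKM in HSA10, 95% interval of the log2 change -0.67 to 0.56). In A10, replicate 1 was the highest library for all 22 genes of the list.

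Targets of PPAR alpha held the largest rises. Of 25 tested targets 19 were called higher and 1 lower, with a median log2 change of 1.23, and 18 were called higher without A10 replicate 3. The list shares 3 genes each with the mitochondrial and peroxisomal lists below. Cyp4a14 (chr4:115486200-115496142), a fatty acid omega-hydroxylase, was at 8.78, 1.06 and 3.37 RPKM in A10 and at 386, 283 and 432 RPKM in HSA10, a log2 change of 6.35 ± 0.92 (adjusted p = 0.000322 from limma). Cyp4a10 (chr4:115518264-115533649) was at 3.72 to 17.2 RPKM in A10 and at 501 to 864 RPKM in HSA10 (log2 change 6.07). The Cyp4a genes are close copies of each other, so reads could have been split between them and the values of single copies are uncertain. Vnn1, pantetheinase, was at 1.53 to 2.19 RPKM in A10 and at 47.91 to 52.98 RPKM in HSA10 (log2 change 4.19, adjusted p = 0.000356). Cd36, a fatty acid transporter, was at 1.87 to 3.79 RPKM in A10 and at 19.8 to 34.6 RPKM in HSA10 (log2 change 2.98). Cidec, a lipid droplet protein named here after its value was seen, was at 0.23 to 0.29 RPKM in A10 and at 6.54 to 9.51 RPKM in HSA10 (log2 change 2.85). Not every target followed. Pdk4, which restrains the use of glucose by mitochondria, fell by 0.95 on the log2 scale (adjusted p = 0.00757), and Fgf21, the hepatic fasting hormone, had overlapping libraries (log2 change -0.13, adjusted p = 0.888).

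**Figure D2:**
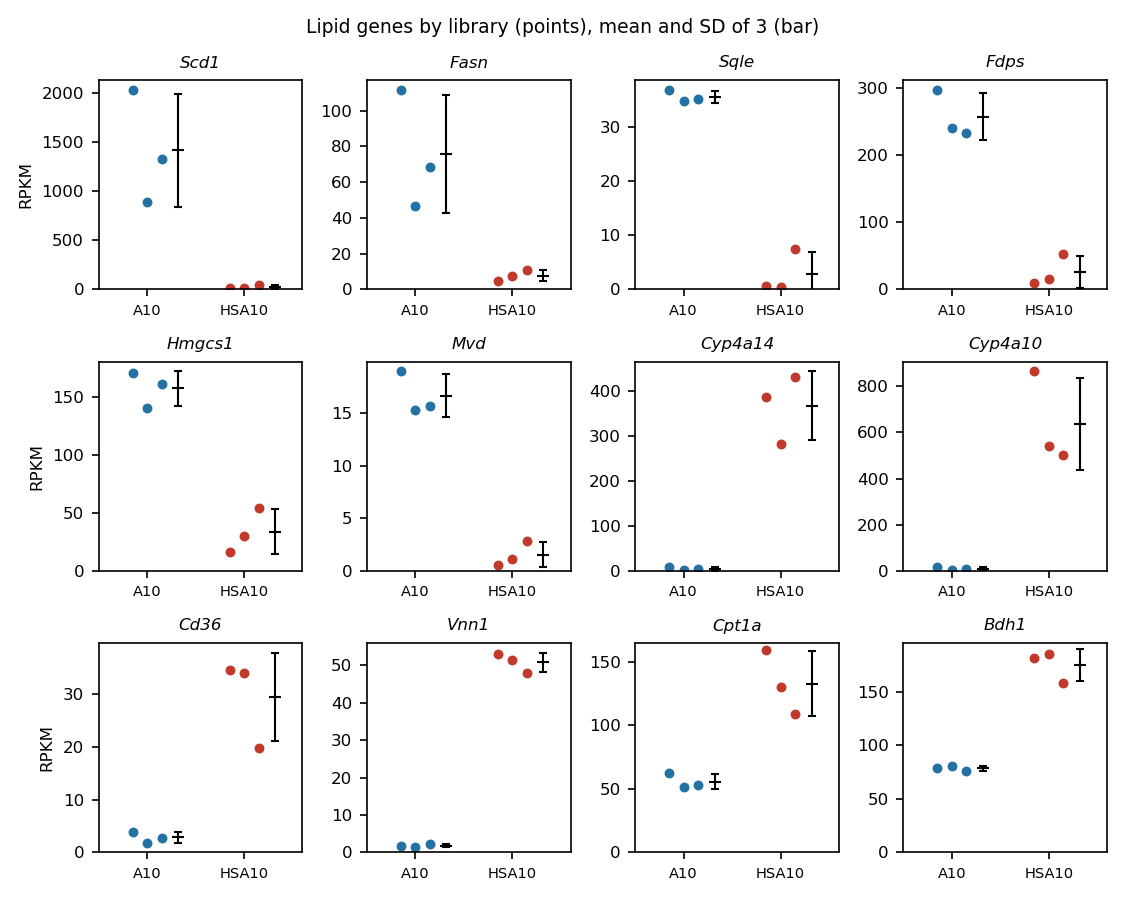
RPKM of 12 genes of lipid metabolism in the 3 A10 libraries (blue) and the 3 HSA10 libraries (red), with the mean and SD of each group in black on linear axes from 0. The groups do not overlap for any of the 12 genes, as for Scd1 at 895 to 2033 RPKM against 14.5 to 46.1 RPKM.

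Most transcripts of fatty acid oxidation were higher in HSA10. Of 20 mitochondrial beta-oxidation genes 17 were called higher and 0 lower (median log2 change 0.90), and of 21 peroxisomal genes 18 were called higher and 0 lower (median 0.79). Both counts were 16 without A10 replicate 3. Cpt1a, which admits long-chain fatty acids to mitochondria, was at 62.3, 51.6 and 52.9 RPKM in A10 and at 159, 130 and 109 RPKM in HSA10 (log2 change 1.23 ± 0.19, adjusted p = 0.000435 from limma). Eci2 (log2 change 1.34) and the thioesterase gene Acot2 (1.88) were the other mitochondrial genes with the largest changes. In peroxisomes, Ehhadh, the bifunctional enzyme, was at 87.6 to 99.3 RPKM in A10 and at 237 to 290 RPKM in HSA10 (log2 change 1.49), and Acaa1b, a thiolase, had a log2 change of 1.31. Acot3 was at 0.69 to 1.01 RPKM in A10 and at 6.80 to 17.8 RPKM in HSA10 (log2 change 2.87). Acot and Acaa1 genes have near copies and carry the same uncertainty as the Cyp4a genes. Of the 6 ketone body genes, 4 were called higher. Bdh1, which makes beta-hydroxybutyrate, was at 75.6 to 80.5 RPKM in A10 and at 158 to 185 RPKM in HSA10 (log2 change 1.15).

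In glucose metabolism the changes were fewer. Of 17 gluconeogenesis genes 6 were called higher and 0 lower. Pck1, the cytosolic PEP carboxykinase, was at 540, 553 and 552 RPKM in A10 and at 1243, 888 and 1106 RPKM in HSA10 (log2 change 0.96 ± 0.13, adjusted p = 0.000198 from limma). Fbp1, fructose-1,6-bisphosphatase (log2 change 1.10), and Pcx, pyruvate carboxylase (1.05), rose as well, while G6pc, glucose-6-phosphatase, did not pass the test (log2 change -0.56, adjusted p = 0.152). Of 20 genes of glucose uptake, glycolysis and glycogen 2 were called higher and 3 lower. Gys2, glycogen synthase of the liver, was at 34.4 to 40.2 RPKM in A10 and at 83.3 to 135 RPKM in HSA10 (log2 change 1.43), while Ppp1r3b, which directs a phosphatase to glycogen, fell by 1.68.

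Of 23 genes of insulin signalling and the IGF axis, 3 (13.04%) were called higher and 1 (4.35%) lower. Neither share was above the 13.6% and 7.28% of all tested genes. Trib3, a pseudokinase that binds AKT, was at 1.61 to 4.0 RPKM in A10 and at 14.7 to 19.8 RPKM in HSA10 (log2 change 2.33 ± 0.24, adjusted p = 2.53e-05 from limma). Igfbp2 had a log2 change of 1.11 and Pik3ca of 0.27, the last a call that was lost without any 1 of the 6 libraries. Igfbp1, an IGF-binding protein that insulin lowers, was at 35.2, 59.6 and 49.3 RPKM in A10 and at 8.49, 9.41 and 10.5 RPKM in HSA10 (log2 change -2.20, adjusted p = 0.00379). The receptor gene Insr did not pass the test (11.4 against 13.9 RPKM).

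Amino acid catabolism and the urea cycle had 11 of 41 genes called higher and 3 lower. Oat, ornithine aminotransferase, was at 68.8 to 91.6 RPKM in A10 and at 344 to 393 RPKM in HSA10 (log2 change 2.23, adjusted p = 2.53e-05 from limma). Haao, of the tryptophan pathway, fell by 0.66 on the log2 scale. In HS against Con 20 of the 41 were called higher, where 15.9% of the tested genes were. For 16 the difference between the effects was below 0 at an unadjusted p under 0.05, where 12.9% of the tested genes had such a p in either direction.

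Bile acid and retinoid genes moved in both directions. Of 22 bile acid genes 5 were called higher and 3 lower. Abcb4, which secretes phosphatidylcholine into bile, was at 42.7 to 51.4 RPKM in A10 and at 128 to 157 RPKM in HSA10 (log2 change 1.57 ± 0.18, adjusted p = 6.73e-05 from limma), and the exporter gene Abcc3 had a log2 change of 1.22. Slc10a2, a bile acid importer, was at 5.03 to 8.21 RPKM in A10 and at 0.17 to 1.24 RPKM in HSA10 (log2 change -2.18), and Cyp27a1, a sterol 27-hydroxylase, fell by 0.89, a call that was lost without HSA10 replicate 1. Cyp7a1, the rate-limiting enzyme of bile acid synthesis, had overlapping libraries (8.92 to 16.9 and 14.2 to 20.1 RPKM, 95% interval of the log2 change -0.637 to 1.502). Of 19 retinoid genes 7 were called higher and 3 lower. Cyp26a1, which degrades retinoic acid, was at 20.6, 28.1 and 24.1 RPKM in A10 and at 0.86, 1.59 and 2.68 RPKM in HSA10 (log2 change -3.27, adjusted p = 0.00197), and the retinal reductase gene Rdh11 fell by 2.87. Retsat, retinol saturase, was at 124 to 157 RPKM in A10 and at 448 to 502 RPKM in HSA10 (log2 change 1.78).

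Genes of lipoproteins and of sterol export included 9 called higher and 4 lower of 23. Abcg5, a part of the pump that moves sterols into bile, was at 26.4 to 34.1 RPKM in A10 and at 61.5 to 82.9 RPKM in HSA10 (log2 change 1.25, adjusted p = 0.0033 from limma). Apoa4 had a log2 change of 1.63. Angptl8, an inhibitor of lipoprotein lipase, fell by 1.54 and Pltp, the phospholipid transfer protein, fell by 1.51 on the log2 scale.

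Genes of drug and steroid metabolism were also called in both directions, 7 higher and 8 lower of 34 cytochrome P450 genes of families 1 to 3. Cyp2b9 was at 30.3, 3.96 and 12.4 RPKM in A10 and at 158, 117 and 44.6 RPKM in HSA10 (log2 change 2.90, adjusted p = 0.0343 from limma), a call that was lost without A10 replicate 3. Cyp2c29 was at 1046 to 1103 RPKM in A10 and at 99.2 to 151 RPKM in HSA10 (log2 change -3.07, adjusted p = 0.00156). These families hold near copies, and the values of single members are uncertain. Of 32 conjugating enzymes (glutathione S-transferases, UGTs and SULTs) 3 were called higher and 9 lower, among them Ugt1a5 (log2 change -2.85). The major urinary protein genes Mup8 (log2 change 3.14) and Mup14 (-4.18), which are near copies of each other, were called in opposite directions. The call for Mup8 was lost without A10 replicate 1, 2 or 3 and without HSA10 replicate 2 or 3, and that for Mup14 without HSA10 replicate 2.

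Further genes with large changes belonged to none of these groups. Cplane1 was at 0.53 to 0.61 RPKM in A10 and at 13.7 to 16.2 RPKM in HSA10, and with a log2 change of 3.32 ± 0.18 (adjusted p = 8.3e-08 from limma) it had a small spread. Gpc1, a cell-surface proteoglycan, was at 0.84 to 1.58 RPKM in A10 and at 18.3 to 19.0 RPKM in HSA10 (log2 change 3.18). Krt23, a keratin, had a log2 change of 3.74. Csad, an enzyme of taurine synthesis, was at 156 to 173 RPKM in A10 and at 9.84 to 40.1 RPKM in HSA10 (log2 change -3.04), and Nat8f7 fell by 3.10.

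Targets of p53 and genes of apoptosis were called higher in 8 and lower in 2 of 24. Phlda3, a p53 target, was at 0.05, 0.14 and 0.23 RPKM in A10 and at 5.43, 4.80 and 3.33 RPKM in HSA10 (log2 change 2.26, adjusted p = 2.57e-05 from limma), and Ccng1, another p53 target, had a log2 change of 1.34. Bbc3, which encodes the pro-apoptotic protein PUMA, fell by 1.05 on the log2 scale. Of the 13 genes that the study named in liver, 11 could be tested, and Dhrs9 and Bcl2 were under the filter. That list came from the study's own libraries, although from other groups. Acaa1a (log2 change 0.79), Gpx1, a glutathione peroxidase (0.63), Nr1h4, the bile acid receptor FXR (0.55), Acaa2 (0.50) and Bax (0.47) were called higher, with adjusted p between 0.000164 and 0.0339 in limma. Acaa2 and Bax lost the call without A10 replicate 3. Rbp4 (log2 change 0.34), Acox2 (0.26) and Nr1h3 (0.02) did not pass the test.

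Transcripts of the circadian clock differed widely between HSA10 and A10. Of 19 tested members 9 were called higher and 4 lower, and the counts were the same without A10 replicate 3. Dbp (chr7:45705088-45710203), a clock output factor, was at 3.41, 0.36 and 1.78 RPKM in A10 and at 97.5, 47.3 and 52.8 RPKM in HSA10, a log2 change of 4.63 ± 0.35 (adjusted p = 3.34e-06 from limma). The repressor gene Ciart was at 0.07 to 0.45 RPKM in A10 and at 2.84 to 16.9 RPKM in HSA10 (log2 change 2.62). Usp2, Per3 and Tef, of which the last encodes a factor related to DBP, had log2 changes of 2.23, 1.84 and 1.78. Arntl, the gene of the activator BMAL1, was at 11.2, 12.7 and 11.8 RPKM in A10 and at 0.70, 2.97 and 2.65 RPKM in HSA10 (log2 change -2.15 ± 0.36, adjusted p = 0.00101). Npas2 fell by 1.69, Nfil3, a repressor of DBP targets, by 1.60 and Cry1 by 1.36 on the log2 scale. The activator and the output genes thus stood on opposite sides.

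Between HS and Con 2 of the 19 clock genes were called higher (Nr1d1 and Nr1d2) and 3 lower, among them Npas2 and Cry1. Of all tested genes, 15.9% were called higher and 1.87% lower there. Nr1d1, Nr1d2, Npas2 and Cry1 were called in the same direction in HSA10. Nr1d2 was at 2.05 to 3.03 RPKM in Con and at 8.18 to 8.88 RPKM in HS, and Npas2 had a log2 change of -0.59 between HS and Con. Dbp was not called there, and was at 0.58 to 0.68 RPKM in Con and at 1.17 to 2.22 RPKM in HS. The difference between the diet and STZ effects, (HSA10 minus A10) minus (HS minus Con), was 3.92 ± 0.50 for Dbp (adjusted p = 0.00978 from limma). It was the 1 gene of 10204 (0.00980%) called for this difference, and 1320 had an unadjusted p under 0.05. At an unadjusted p under 0.05, 15 of the 19 clock genes differed between the effects (8 above 0 and 7 below), where 12.9% of the tested genes did. Usp2 had a difference of 2.78 (adjusted p = 0.0591), Ciart of 2.66 (adjusted p = 0.0934) and Arntl of -1.97 (adjusted p = 0.148), none of which was called. Nr1d1, a repressor of Arntl, was at 1.22 to 3.68 RPKM in Con, 17.17 to 26.96 RPKM in HS, 10.0 to 30.7 RPKM in A10 and 49.7 to 58.5 RPKM in HSA10. In the other groups of the series, which received the diet, STZ and microbiota transfer, Dbp was at 48.8 to 98.8 RPKM (A10-FMT) and at 51.8 to 55.5 RPKM (Con-FMT). Dbp was thus at most 3.41 RPKM in every library of Con, HS and A10 and at least 47.3 RPKM in every library of HSA10, A10-FMT and Con-FMT. Other clock genes were near their HSA10 levels in both transfer groups. Arntl was at 0.91 to 3.11 RPKM in A10-FMT and at 1.26 to 4.92 RPKM in Con-FMT, and Ciart at 8.82 to 17.9 and 9.79 to 12.7 RPKM. Not all were, with Nfil3 at 19.9 to 33.3 RPKM and Hlf at 4.31 to 7.1 RPKM in Con-FMT. The clock levels of HSA10 were thus not particular to it. The call for Dbp was lost with a pseudocount of 0.1, without HS replicate 3, and with A10 and Con replicate 3 both left out. The hour at which livers were taken is not given in the sources used here, and its part in the result was not tested.

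**Figure D3:**
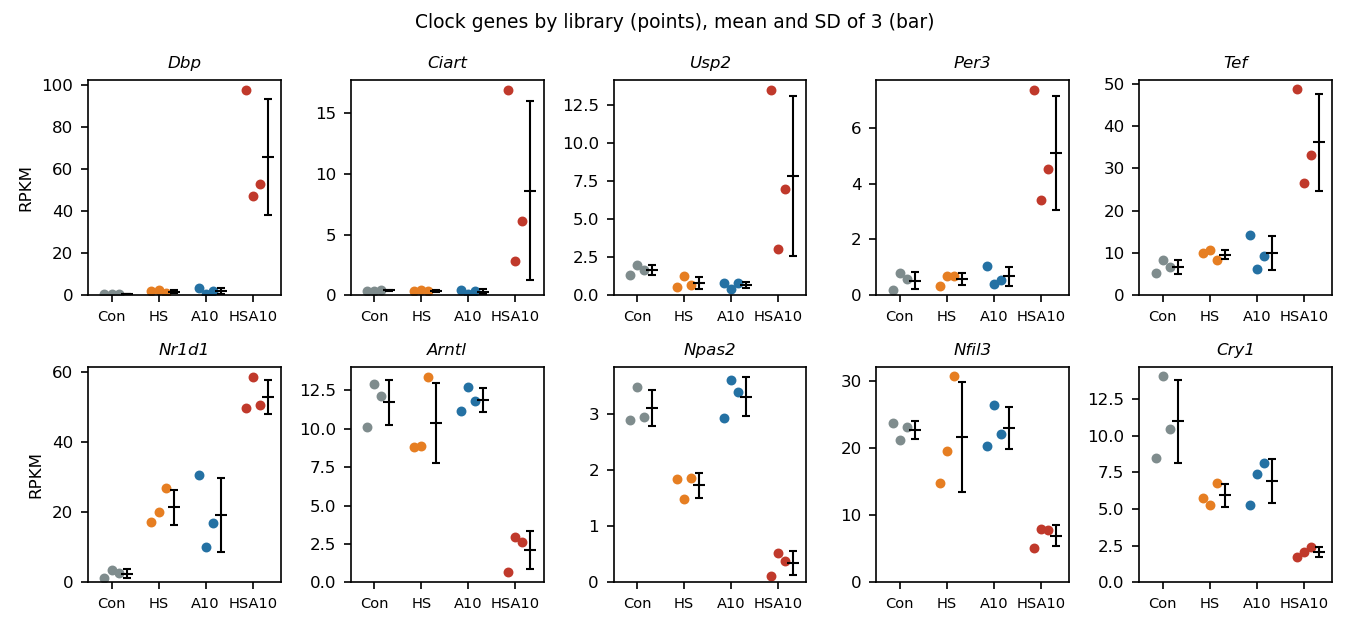
RPKM of 10 clock genes in the 3 libraries of Con, HS, A10 and HSA10 (points), with the mean and SD of each group in black on linear axes from 0. The HSA10 libraries stand apart from the other 3 groups shown, with Dbp at 47.3 to 97.5 RPKM against at most 3.41 RPKM and Arntl at 0.70 to 2.97 RPKM against at least 8.84 RPKM. A10-FMT and Con-FMT, which are not shown, had Arntl at 0.91 to 3.11 and 1.26 to 4.92 RPKM.

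Promoter stretches of clock genes are shown because this list holds the called difference. RefSeq windows were at hand for 17 genes of the list. The E-box CACGTG, the site through which the BMAL1 and CLOCK pair acts, was found in 5 of them (29.4%), against 12% of the tested genes with a window. The D-box TTATGTAA, a site of DBP, TEF and HLF, was found in 1 of the 17, against 0.701% of the tested genes. The window of Dbp held neither motif, which says only that these letters are not in this window. Capitals mark the motifs, the E-box in Ciart (chr3:95882310-95882369, minus strand), Tef (chr15:81802521-81802580, plus strand) and Cry1 (chr10:85185080-85185139, minus strand) and the D-box in Per3 (chr4:151044836-151044895, minus strand).
Ciart: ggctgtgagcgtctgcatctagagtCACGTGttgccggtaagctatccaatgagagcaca
Tef: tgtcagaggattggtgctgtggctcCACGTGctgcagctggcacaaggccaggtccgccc
Cry1: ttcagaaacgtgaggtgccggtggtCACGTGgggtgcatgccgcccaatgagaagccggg
Per3: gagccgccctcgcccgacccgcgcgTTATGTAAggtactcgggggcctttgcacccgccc

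The calls of HSA10 against A10 were also set beside those of HS against Con. In HS, 15.9% of the tested genes were called higher and 1.87% lower than in Con. Of the calls in HSA10, 914 were called in the same direction in HS, which is 42.9% of the HSA10 calls and 50.5% of the HS calls, and 8 were called in the opposite direction. The 2 sets of log2 changes share no library and correlated across the 10204 genes with a Pearson r of 0.683 and a Spearman rho of 0.581, given as a description since genes are not independent replicates. Cholesterol synthesis was called lower in 21 of 25 genes in HSA10 and in 4 of 25 in HS, but 1 of the 25 (Acat2) differed between the effects at an unadjusted p under 0.05. The HS libraries were spread widely for these genes, with Sqle at 0.40, 32.04 and 15.3 RPKM against 37.8 to 47.6 RPKM in Con. PPAR alpha targets were called higher in 19 genes in HSA10 and in 20 in HS, and Cyp4a14 differed between the effects by 0.94 ± 1.296 (SE). Genes with the smallest p for the difference besides the clock were Slc25a22 (-0.89 ± 0.14), Nfxl1 (-0.92 ± 0.15) and LOC101055676 (0.92 ± 0.16), each with an adjusted p of 0.0591, Pnldc1 (1.58), St3gal1 (-1.06), Gm41476 (-1.42) and Cdk2ap2 (-0.83). Slc25a22, a mitochondrial glutamate carrier, was called higher in both, from 51.4 to 76.5 RPKM with AOS and from 38.7 to 108 RPKM without.

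**Figure D4:**
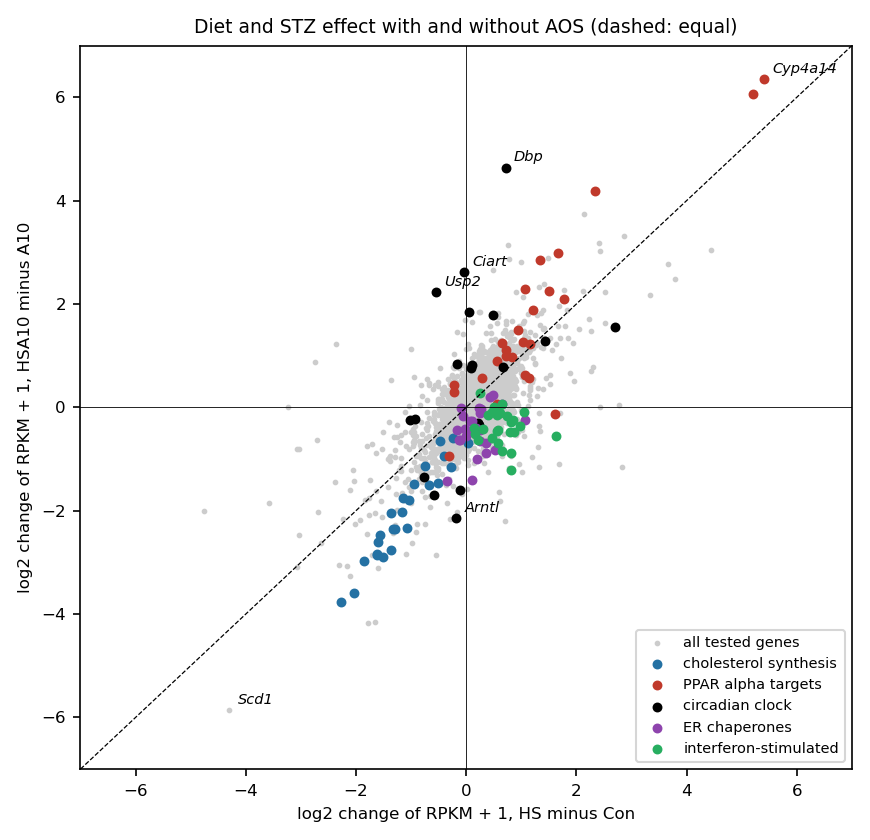
Log2 change of RPKM + 1 in HSA10 minus A10 (vertical axis) against HS minus Con (horizontal axis) for the tested genes, with 5 gene lists in colour and a dashed line where the effects are equal. Most cholesterol genes (blue) and PPAR alpha targets (red) lie on the same side of 0 in both, while Dbp stands at 4.63 against 0.72.

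Chaperones of the endoplasmic reticulum were called lower in 12 and higher in 0 of 26 (median log2 change -0.44), or in 5 without A10 replicate 3. Sdf2l1 was at 23.04 to 31.79 RPKM in A10 and at 6.81 to 11.1 RPKM in HSA10 (log2 change -1.43, adjusted p = 0.00233 from limma), and Manf fell by 1.42, a call that was lost without HSA10 replicate 1. Hspa5, the chaperone BiP, was at 293, 228 and 249 RPKM in A10 and at 105, 152 and 168 RPKM in HSA10 (log2 change -0.88, adjusted p = 0.0367). In HS none of the 26 was called lower and 3 were called higher. Of all tested genes, 1.87% were called lower and 15.9% higher in HS, so neither count was above those shares. The difference between the effects was below 0 at an unadjusted p under 0.05 in 16 of the 26. Of all tested genes, 12.9% had such a p in either direction.

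Cytosolic ribosomal proteins were slightly lower throughout. All 75 tested genes had a log2 change below 0, 41 were called lower and the median was -0.34, with 34 called without A10 replicate 3 and 62 with median scaling. Rps20 had a log2 change of -0.60, Rpl28 of -0.57 and Rpl12 of -0.56. These changes were small beside those of the lipid genes. Of 31 acute-phase genes 7 were called lower and 0 higher. Apcs, serum amyloid P, was at 295 to 300 RPKM in A10 and at 45.2 to 110 RPKM in HSA10 (log2 change -2.04, adjusted p = 0.00407 from limma), and the fibrinogen gene Fga fell by 0.79.

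Interferon-stimulated genes gave 1 call in 26, Stat2 (log2 change -0.53), in HSA10 against A10, which was lost without A10 replicate 2 or HSA10 replicate 1. In HS against Con 7 of the 26 were called higher, where 15.9% of the tested genes were. The difference between the effects was below 0 at an unadjusted p under 0.05 in 20 of the 26 and above 0 in none, with a median of -1.01, and none was called after adjustment. Among all tested genes 12.9% had such an unadjusted p in either direction. Single libraries stood out in this list. A10 replicate 2 was the highest of its group for 23 of the 26 genes and HS replicate 3 for 24. Irf7, a factor that amplifies the response, was at 16.2, 66.2 and 45.3 RPKM in A10 and at 17.7, 9.18 and 21.8 RPKM in HSA10, with overlap between the groups. In antigen presentation 6 of 24 genes were called lower, among them H2-Q10 (log2 change -1.41) and H2-Q1 (-1.32), which belong to a family of near copies.

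The remaining lists held fewer calls. Of 17 listed genes that are higher in female liver 7 passed the filter. Of these, 4 were called higher (Cyp2b9, Cyp2b13, Cyp3a44 and Acot3). The filter used the mean of all 18 libraries, so a gene low in A10 could pass through high levels in other groups. Cyp2b13 and Acot3 had A10 means of 0.72 and 0.81 RPKM and HSA10 means of 14.52 and 13.03 RPKM. The count of 4 therefore does not describe the list as a whole. Of 20 tested growth hormone and male-biased genes 1 was called higher and 3 lower, with Serpina12 at a log2 change of -1.41. Among 24 antioxidant genes 6 were called higher and 4 lower. The 4 were G6pdx (log2 change -0.89), Pgd (-0.81), Tkt (-0.84) and Me1 (-1.27). G6pdx, Pgd and Tkt encode enzymes of the pentose phosphate pathway and Me1 the malic enzyme. Of 19 genes of the integrated stress response 4 were called higher and 2 lower, with Gdf15, a stress hormone, at a log2 change of 1.57 and the factor gene Atf4 at -0.54. Without A10 replicate 3 neither of the 2 lower calls, Atf4 and Slc3a2, remained, and that of Atf4 was also lost without A10 replicate 2 and without HSA10 replicate 1 or 2. Of 33 listed cell cycle genes 10 passed the filter, and 3 of these were called higher, including Ccnd1, cyclin D1 (log2 change 1.52). The other calls were at low levels, with means in A10 and HSA10 of 0.95 and 1.82 RPKM for Cdt1 and of 0.71 and 1.32 RPKM for Mcm2. The call for Mcm2 was lost without any 1 of the 6 libraries, and that for Cdt1 without A10 replicate 2. None of 20 immediate-early genes was called. In the list of 21 heat shock genes the 1 call was Hspd1 (log2 change 0.34), which encodes a mitochondrial chaperonin and not a cytosolic protein, and it was lost without any 1 of the 6 libraries. Of 19 glucocorticoid-responsive genes 2 were called higher and 2 lower. Oxidative phosphorylation (4 higher of 55, 7.27%) and the proteasome (3 higher of 31, 9.68%) had medians of 0.05 and 0.02, which turned to -0.01 and -0.04 with median scaling. Both shares were under the 13.6% of all tested genes called higher.

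Markers of some other cells of the liver moved with the comparison. In whole tissue a change in the number of cells of a type and a change in RNA per cell cannot be told apart. Of 12 markers of endothelial cells 9 were called higher and 0 lower (6 without A10 replicate 3), and their summed level was 88.5 to 103 RPKM in A10 and 120 to 153 RPKM in HSA10. Eng, endoglin, was at 13.4 to 16.7 RPKM in A10 and at 20.2 to 25.1 RPKM in HSA10 (log2 change 0.60, adjusted p = 0.00206 from limma), and Lyve1 had a log2 change of 0.85. Of 12 stellate cell and fibroblast markers 6 were called higher and 0 lower (4 without A10 replicate 3), with a sum of 91.4 to 102 RPKM in A10 and 130 to 142 RPKM in HSA10. Hgf, a growth factor of stellate cells, had a log2 change of 0.85 and Lrat, which stores retinol as ester in these cells, of 0.64. None of 12 Kupffer cell and macrophage markers was called, and of 12 hepatocyte markers 3 were called higher and 3 lower. Lymphocyte markers summed to 5.55 to 7.41 RPKM in A10 and to 2.88 to 4.08 RPKM in HSA10. None of them passed the filter, so none was tested and these are low values. Cd4 leaned the other way with overlap, at 0.29 to 0.75 RPKM in A10 and at 0.61 to 1.13 RPKM in HSA10. Of 6 red blood cell markers tested none was called, and 8 of the 21 pancreas markers were at 0 in all 6 libraries. The adipocyte list summed to 8.08 to 10.4 RPKM in A10 and to 21.3 to 24.9 RPKM in HSA10. Most of this sum was Fabp4, at 7.92 to 10.43 RPKM in A10 and at 18.45 to 23.27 RPKM in HSA10. Adipoq was at most 0.11 RPKM and Plin1 was at 0 in all 6 libraries. Whether these shifts bear on the gene groups above was not tested.

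**Figure D5:**
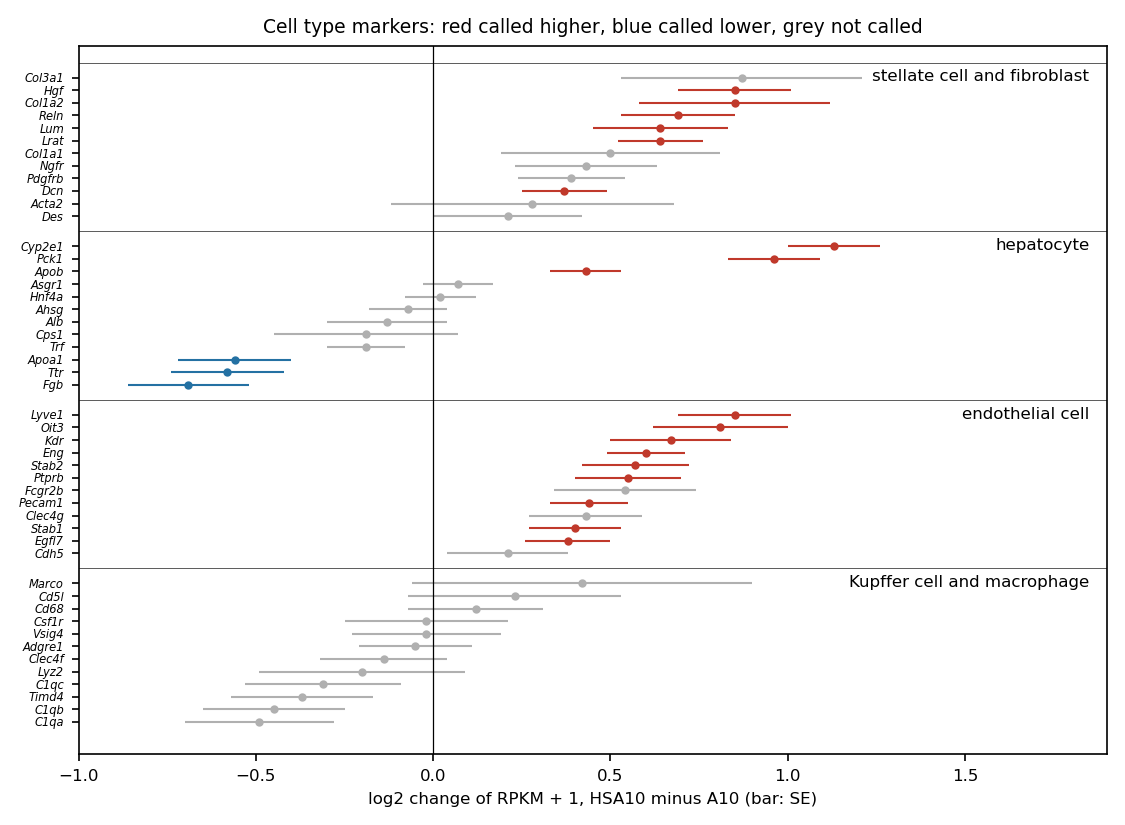
Log2 change of RPKM + 1, HSA10 minus A10, with its SE (bar) for the tested markers of 4 cell types. All endothelial and stellate markers lie above 0 and 15 of these 24 were called higher, while none of the 12 macrophage markers was called.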

How the data were processed

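Liver mRNA was sequenced by the authors (oligo(dT) selection, an Illumina HiSeq instrument) and deposited as 1 table of RPKM values, 19057 rows by 18 libraries, which carries no counts. The study's methods name SOAPaligner, while the submitters' processing notes name Bowtie 0.12.2 and mm10. Of the rows, 26 are symbols that had turned into dates. Values were analysed as deposited. All 18 libraries entered 1 limma fit (limma 3.58.1, R 4.3.3) of log2(RPKM + 1), with a mean per group, a variance trend, a mean of at least 1 RPKM, two-sided tests and Benjamini-Hochberg adjustment over 10204 genes. The fit was tested on simulated data with independent libraries. That simulation cannot show how the fit behaves with libraries such as A10 and Con replicate 3. The difference of the effects is (HSA10 minus A10) minus (HS minus Con), which share no library. Replicate numbers did not pair libraries (correlations of same-numbered deviations 0.181, -0.091 and 0.176). Named genes were the 12 largest called changes in each direction without overlap, up to 3 called genes in each direction of a list, the genes named by the study, and the 5 smallest p in each direction for the difference. Others were named as textbook enzymes of a step or after their values were seen. The groups and lists were chosen with earlier results of these data known. Gene positions came from GENCODE vM21 (GRCm38) and promoter sequences from RefSeq (GRCm38.p6), with figures in matplotlib 3.10.9. Alternatives covered the pseudocount, filter, scaling, trend, threshold, replicate block and left-out libraries. Some genes of the lists are counted but not reported here by name.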

Additional observations from a re-analysis of the deposited data

Results flagged for a closer look

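Dbp stood out because its log2 change was 4.63 in HSA10 against A10 and 0.72 in HS against Con. The difference was 3.92 (adjusted p = 0.00978 from limma). Dbp was also at 48.8 to 98.8 RPKM in A10-FMT and at 51.8 to 55.5 RPKM in Con-FMT. The call for the difference was lost with a pseudocount of 0.1, without HS replicate 3, and with A10 and Con replicate 3 both left out. Whether AOS, the hour of sampling or another factor lay behind these levels was not tested. Con-FMT replicate 3, which is in neither compared group, carried pancreatic transcripts at 3.26% of its RPKM, while the other libraries were at 0.00675% or less.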

How the results depend on the processing

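The count of 2131 genes called between HSA10 and A10 fell to 132 (96 higher and 36 lower) at the threshold of the study, to 1164 with A10 and Con replicate 3 both left out, an alternative chosen after seeing the data, and to between 1325 and 1688 with 1 library left out. It was 1325 without A10 replicate 2, 1356 without HSA10 replicate 1 and 1372 without A10 replicate 3. Under the other settings it lay between 1584 and 2465, with 2006 under a replicate block. The difference of the effects, called for 1 gene, was called for 0 genes at the threshold of the study and with A10 and Con replicate 3 both left out, for 4 with a pseudocount of 0.1, for 2 without a filter and with a mean of at least 5 RPKM, for 8 with only the 12 libraries of the 4 groups, for 11 with Con-FMT replicate 3 left out (also chosen after seeing the data), and for 0 (without HS replicate 3) to 118 (without HS replicate 1) with 1 library left out, 15 of them without HSA10 replicate 2. Under the replicate block it was called for 1 gene. Where limma called 0, 1320, 885 and 1071 genes had an unadjusted p under 0.05, in the order named. The cause of these shifts was not tested. Of 140 called genes among the 146 named, 102 kept the call under all alternatives and 38 lost it under at least 1, 24 of them without A10 replicate 3. Nr1h3, which was not called, turned to -0.042 with median scaling, to -0.006 with A10 and Con replicate 3 both left out and lay between -0.032 and 0.085 with 1 library left out. With RPKM only, the depth that limits low genes is unknown.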
